A study of Mus musculus with 10 samples.

Results

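The data set out here are the expression values of Tnfaip3 and 9 further genes of the NF-kB feedback circuit in T cells of mouse melanomas. The 10 genes were named by their symbols, Tnfaip3, Nfkbia, Nfkbiz, Nfkbid, Bcl3, Nfkb1, Nfkb2, Relb, Birc3 and Traf1, and they are 10 of the 48825 genes in the deposited table. All 10 exceeded the low-value filter, a value of at least 10 in at least 2 libraries, which 15716 genes met. The list was chosen by a reading of these same libraries in which Tnfaip3 was low under either single treatment, so the comparisons of CD40 antibody with control and of CSF1R inhibitor with control are given as descriptions, with no test.

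RNA was sequenced from 10 libraries in 4 groups of tumor-bearing mice, each library pooling cells of at least 3 tumors. The CSF1Ri+CD40 group (2 libraries, numbered 1 and 3) received chow with PLX6134, an inhibitor of the receptor CSF1R, at 600 mg/kg together with FGK4.5, an agonist antibody to CD40, at 10 mg/kg by intraperitoneal injection every 3 days. The CD40 group (3 libraries) received FGK4.5 on normal chow, the CSF1Ri group (2 libraries, called 1 and 6 here) received the PLX6134 chow alone, and the control group (3 libraries) had normal chow and PBS. The title of CSF1Ri library 1 gives no number. Mice of all groups, controls included, carried alleles that include BrafCA and Tyr::CreER, although the genotype field of the labels reads wild type, and treatment ran from day 30 after induction for up to 30 days. Tyr::CreER restricts the recombinase to the melanocyte lineage, so the recombined alleles lie in the tumor cells and not in the T cells measured. The age of the mice is not given in the labels used here.

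The tissue field of the labels names tumor-associated macrophages while the titles name T cells. Values are normalized counts, which are read counts divided by the authors' size factor of each library. The summed normalized counts of 10 T cell markers were between 110101 and 183613 per library, and those of 10 macrophage and monocyte markers between 501 and 2621, so the values follow the titles. Totals of normalized counts were between 11538244 and 14024851 per library. The libraries were not uniform in other respects. Y-linked transcripts summed to 1569 in CD40 library 2, 3072 in CD40 library 3 and 2438 in Control library 1, and to 0 or 1 in the other libraries. CD40 library 3 also had the highest Malat1, a nuclear noncoding RNA, at 95260 against 14056 to 59286 elsewhere, and the lowest sum of mitochondrially encoded transcripts, at 95074.

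NF-kB dimers are held in the cytoplasm by inhibitory IkB proteins until receptors of the TNF, antigen and toll-like families activate the IkB kinase, which marks the IkB for destruction. The freed dimers then induce, among other genes, their own inhibitors, and this feedback limits how long the signal lasts. In T cells the circuit acts downstream of the antigen receptor and of costimulatory TNF receptors. Of the genes listed, Tnfaip3 encodes A20, a ubiquitin-editing enzyme that ends signaling upstream of the kinase, and Nfkbia encodes IkB alpha, which draws NF-kB back out of the nucleus. Nfkbiz, Nfkbid and Bcl3 encode atypical IkB proteins of the nucleus that modulate transcription. Nfkb1, Nfkb2 and Relb encode subunits of NF-kB, Birc3 the ubiquitin ligase cIAP2, and Traf1 an adaptor of TNF receptor complexes.

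Tnfaip3 lies on the minus strand at chr10:19000910-19015657 and Nfkbia on the minus strand at chr12:55489410-55492647 in GRCm38, by GENCODE vM21. The promoters of Tnfaip3, Nfkbia and Nfkbid are shown because these feedback genes are known NF-kB targets, and that of Traf1 because it is the member whose group means ran opposite to most others. The sequences are those of RefSeq on GRCm38.p6, read 5' to 3' on the strand of the gene and ending at the base before the start site, and capitals mark the kappa B consensus on either strand. That of Tnfaip3 is cut to the 137 bases that lie outside the exons of another transcript, and the others are 250 bases long. Of the windows in the table for Tnfaip3 and Nfkbid, which have 2 and 3, the one holding the consensus is shown. The other Tnfaip3 window and the other 2 of Nfkbid hold none. The windows shown lie at chr10:19015411-19015547, chr12:55492648-55492897, chr7:30422156-30422405 and chr2:34961773-34962022, on the minus strand except for Nfkbid.
Tnfaip3: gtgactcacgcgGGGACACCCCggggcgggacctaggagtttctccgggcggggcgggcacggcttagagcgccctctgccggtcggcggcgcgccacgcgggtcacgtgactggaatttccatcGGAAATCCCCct
Nfkbia: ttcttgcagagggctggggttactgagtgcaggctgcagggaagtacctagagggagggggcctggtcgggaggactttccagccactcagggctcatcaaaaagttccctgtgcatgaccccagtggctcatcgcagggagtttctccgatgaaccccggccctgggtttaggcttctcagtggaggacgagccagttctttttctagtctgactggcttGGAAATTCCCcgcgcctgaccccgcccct
Nfkbid: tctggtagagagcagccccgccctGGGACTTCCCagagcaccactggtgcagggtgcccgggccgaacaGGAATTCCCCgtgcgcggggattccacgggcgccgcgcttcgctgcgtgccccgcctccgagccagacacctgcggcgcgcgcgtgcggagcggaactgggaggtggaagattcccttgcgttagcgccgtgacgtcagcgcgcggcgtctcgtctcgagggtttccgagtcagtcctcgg
Traf1: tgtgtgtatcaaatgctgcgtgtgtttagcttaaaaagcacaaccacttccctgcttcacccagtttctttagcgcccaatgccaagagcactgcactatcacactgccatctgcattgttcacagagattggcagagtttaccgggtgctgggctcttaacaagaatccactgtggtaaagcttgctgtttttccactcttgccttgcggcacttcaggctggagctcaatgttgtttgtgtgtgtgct
The consensus was found in Tnfaip3 at -125 to -116 and -12 to -3 from the start site, in Nfkbia at -29 to -20 and in Nfkbid at -226 to -217 and -181 to -172. It was not found in these letters of the Traf1 window. The windows of Bcl3 and Birc3, which had their highest group means in controls, unlike Traf1, did not hold it either. Every window of Nfkb2 held it. Of the members, 7 had promoters in the RefSeq table, with 12 windows of 250 bases in all. The consensus occurred in 6 of those windows, of 4 members, and in 3.90% of 32851 mouse promoters of the same length. A looser pattern, GGGNNNNNCC on either strand, which overlaps the consensus, occurred in 11 of the 12 windows and in 45.8% of the promoters. A match describes the letters only.

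Tnfaip3 was the member that varied most, with 8.11-fold between its lowest and its highest library. It had 2906 and 5964 normalized counts in the CSF1Ri+CD40 libraries, 1690, 2031 and 833 in the CD40 libraries, 3223 and 2029 in the CSF1Ri libraries, and 6755, 4391 and 5004 in the controls. All 5 libraries of the single treatments were below all 3 controls, whereas the CSF1Ri+CD40 libraries overlapped the controls, 1 of them below and 1 within their range. The means were 4435 ± 2162 (SD, n = 2) with both agents, 1518 ± 617 (n = 3) with the antibody, 2626 ± 844 (n = 2) with the inhibitor and 5383 ± 1227 (n = 3) in controls. Neighbours in the order control, CSF1Ri+CD40, CSF1Ri and CD40 overlapped at each step. In bulk RNA of this kind, fewer cells expressing a gene and less RNA per cell cannot be told apart.

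On the log2(value + 1) scale, Tnfaip3 was lower by 3.73-fold in CD40 than in control libraries (log2 fold change -1.90) and by 2.07-fold in CSF1Ri than in control libraries (-1.05). With both agents it was -0.35 relative to control (95% confidence interval -1.24 to 0.55, adjusted p = 0.965 by limma, a linear model with moderated variances fitted to all genes). Its low values were picked out against these same controls, so this value too is a description. Tnfaip3 was 2.93-fold higher with both agents than with the antibody alone (log2 1.55), and both CSF1Ri+CD40 libraries were above all 3 CD40 libraries. Tnfaip3 was picked out as low in those CD40 libraries, so this difference is a description, and its adjusted p over all genes was not under the threshold of 0.05.

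The effect of the antibody on Tnfaip3 was 0.70 among mice on the inhibitor, with the groups overlapping, and -1.90 among mice on normal chow. Tnfaip3 was also picked out as low in the CSF1Ri libraries, so the first value is a description. Its adjusted p over all genes was not under the threshold. The difference of these effects, the interaction, was 2.60. It contains the contrasts in which Tnfaip3 was picked out, so it too is a description, and it missed the adjusted threshold over all genes. Without CSF1Ri+CD40 replicate 3, the higher of that pair, the value was 2.08, and without CSF1Ri+CD40 replicate 1 it was 3.12.

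The second inhibitor, Nfkbia, did not have this pattern. It had 8990 and 8310 normalized counts in the CSF1Ri+CD40 libraries, 10078, 15133 and 6127 in the CD40 libraries, 7347 and 4941 in the CSF1Ri libraries, and 9042, 10182 and 6579 in the controls. CD40 libraries 2 and 3 held its highest and its second lowest value, and the CD40 and control groups overlapped. The log2 fold change of CD40 over control was 0.21 for Nfkbia, beside -1.90 for Tnfaip3. With both agents Nfkbia was 0.03 relative to control (95% interval -0.71 to 0.78, limma adjusted p = 1.00), and its interaction was 0.31 (-0.74 to 1.36, limma adjusted p = 0.991). Per kilobase of exon, Nfkbia was the most abundant of the 10 genes, with a mean of 5387 normalized counts per kb, against 482 for Tnfaip3 and 56.5 for Bcl3, the lowest.

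**Figure D1:**
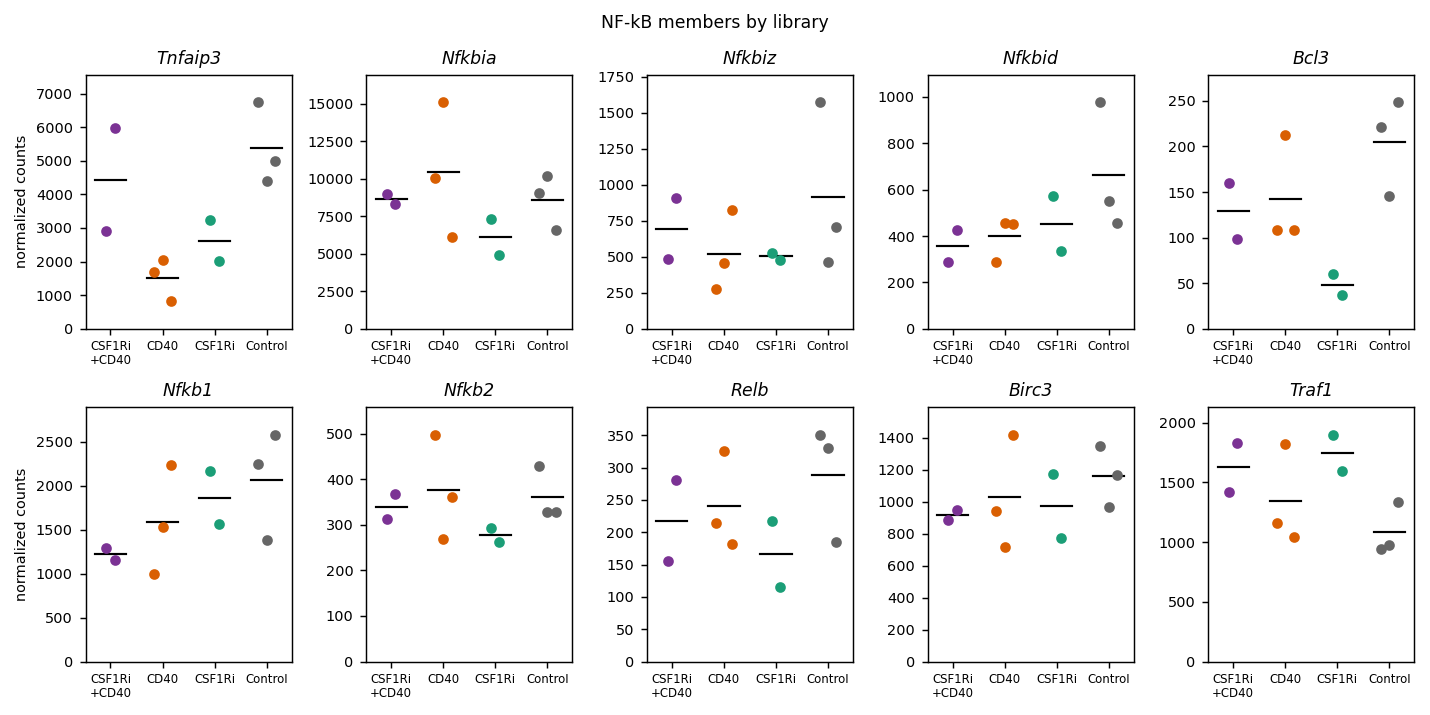
Normalized counts (vertical axes, from 0) of the 10 genes in each library (points), by group (horizontal axes), with the group mean as a line. Tnfaip3 is below every control in all 5 libraries of the single treatments, and Bcl3 is lowest in both CSF1Ri libraries.

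Among the atypical nuclear IkB genes, Bcl3 was lowest under the inhibitor alone. It had 160 and 98 normalized counts in the CSF1Ri+CD40 libraries, 108, 212 and 108 in the CD40 libraries, 60 and 37 in the CSF1Ri libraries, and 221, 146 and 249 in the controls. Both CSF1Ri libraries were below every other library. The CSF1Ri libraries were 4.18-fold lower than control (log2 -2.06), a described contrast. On the log2 scale Bcl3 was 1.39 higher with both agents than with the inhibitor alone, and its interaction was 1.95. Both values hold the CSF1Ri libraries in which Bcl3 was already seen to be low, so they are descriptions, and neither passed the adjusted threshold.

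Nfkbiz and Nfkbid had their highest values in Control library 1. Nfkbiz had 487 and 905 normalized counts in the CSF1Ri+CD40 libraries, 275, 457 and 826 in the CD40 libraries, 529 and 477 in the CSF1Ri libraries, and 1577, 463 and 705 in the controls. Nfkbid had 287 and 424 in the CSF1Ri+CD40 libraries, 286, 457 and 452 in the CD40 libraries, 571 and 334 in the CSF1Ri libraries, and 979, 552 and 457 in the controls. For Nfkbiz every treated group overlapped the controls, and for Nfkbid the CSF1Ri+CD40 libraries alone lay below all of them. Nfkbid was -0.85 with both agents relative to control (95% interval -1.76 to 0.07, limma adjusted p = 0.925), and Nfkbiz was -0.27 (-1.47 to 0.93, adjusted p = 0.983).

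Of the subunit genes, Nfkb1, which encodes p105 and p50, had 1291 and 1157 normalized counts in the CSF1Ri+CD40 libraries, 991, 1529 and 2235 in the CD40 libraries, 2168 and 1560 in the CSF1Ri libraries, and 2240, 1386 and 2580 in the controls. The CSF1Ri+CD40 libraries lay below every control and every CSF1Ri library. With both agents Nfkb1 was -0.71 relative to control (95% interval -1.50 to 0.08, limma adjusted p = 0.925) and -0.59 relative to the inhibitor (-1.45 to 0.27, adjusted p = 1.00). Nfkb2, which encodes p100 and p52, stayed between 263 and 498 in all libraries, a range of 1.89-fold and the narrowest of the 10. Relb, the partner of p52 in the alternative pathway, was between 115 and 351. Their log2 fold changes with both agents over control were -0.08 for Nfkb2 (limma adjusted p = 0.998) and -0.41 for Relb (adjusted p = 0.965).

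Traf1 was the member with its lowest mean in controls. It had 1420 and 1832 normalized counts in the CSF1Ri+CD40 libraries, 1161, 1818 and 1046 in the CD40 libraries, 1901 and 1592 in the CSF1Ri libraries, and 939, 978 and 1338 in the controls. All 4 libraries that received the inhibitor, with or without the antibody, were above all 3 controls, and the CD40 libraries overlapped them. Traf1 was 0.59 with both agents relative to control (95% interval -0.05 to 1.23, limma adjusted p = 0.925) and 0.70 with the inhibitor relative to control, the second value being a description. Birc3 had 888 and 947 in the CSF1Ri+CD40 libraries, 945, 717 and 1421 in the CD40 libraries, 1172 and 771 in the CSF1Ri libraries, and 1347, 970 and 1166 in the controls. Its CSF1Ri+CD40 libraries lay just below every control, at a log2 fold change of -0.33 (limma adjusted p = 0.951).

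**Figure D2:**
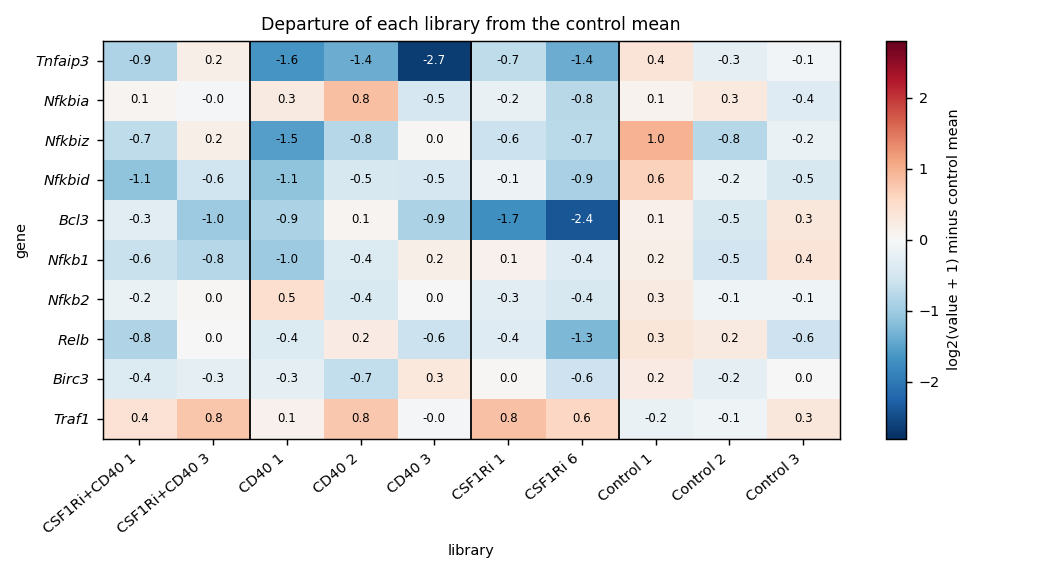
Departure of each library (columns) from the mean of the controls, log2(value + 1), for the 10 genes (rows), with group boundaries as black lines and the scale at the right. Tnfaip3 is at -2.67 in CD40 library 3 and 0.17 in CSF1Ri+CD40 library 3, and Traf1 is at or above -0.03 in every treated library.

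Counted over the 10 members, 8 were lower and 2 higher with both agents than in controls, with a median log2 fold change of -0.34, while 50.5% of all tested genes were lower. The control and single-treatment libraries were in view when the members were chosen. This count, and those over either agent alone, are therefore descriptions. No member passed an adjusted p of 0.05 by limma, where 0% of all genes did, and none had an unadjusted p under 0.05, which 849 genes (5.40%) had. Nfkbid, Nfkb1 and Birc3 did not overlap the controls from below, a pattern that 9.60% of all genes had, and Traf1 from above, as did 10.6%. Against the antibody alone, 7 members were lower and 3 higher with both agents, at a median of -0.11, and 49.2% of all genes were lower. None passed the adjusted threshold (0% of all genes), and 1 member had an unadjusted p under 0.05, beside 780 genes (4.96%). That member was Tnfaip3, chosen on the CD40 libraries. Tnfaip3 was also the 1 member that lay wholly above the CD40 libraries, as did 8.19% of all genes, and none lay wholly below them, as did 6.84%.

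Against the inhibitor alone, 6 members were higher and 4 lower with both agents, at a median of 0.34, and 50.3% of all genes were lower. Low values in the CSF1Ri libraries, known when the members were chosen, raise the values of this contrast. No member passed the adjusted limma threshold (0% of all genes), and Bcl3 had an unadjusted p under 0.05, beside 563 genes (3.58%). Nfkbia, Bcl3 and Nfkb2 lay wholly above the CSF1Ri libraries, as did 16.5% of all genes, and Nfkb1 wholly below, as did 16.8%. In the interaction 8 members were above 0 and 2 below, at a median of 0.34, and 50.9% of all genes were below 0. Low values under a single treatment raise the interaction, so the member count is a description. None passed the adjusted limma threshold (0% of all genes). Tnfaip3 and Bcl3, whose low values under 1 agent were known, had an unadjusted p under 0.05, beside 655 genes (4.17%).

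For the described contrasts, 7 members were lower in CD40 than in control libraries at a median of -0.33, and 50.7% of all genes were lower. Tnfaip3 alone lay wholly below the controls, which 4.91% of all genes did, and none lay wholly above, which 4.19% did. In CSF1Ri libraries 9 members were lower than control at a median of -0.51, and 48.4% of all genes were lower. Tnfaip3, Bcl3 and Nfkb2 lay wholly below the controls, which 10.3% of all genes did, and Traf1 wholly above, which 11.6% did. These shares are printed for scale, since the contrasts were used in choosing the members. All shares are for pairs of groups. Patterns stated over more groups, as for Tnfaip3, Bcl3 and Traf1, have no share over all genes beside them.

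**Figure D3:**
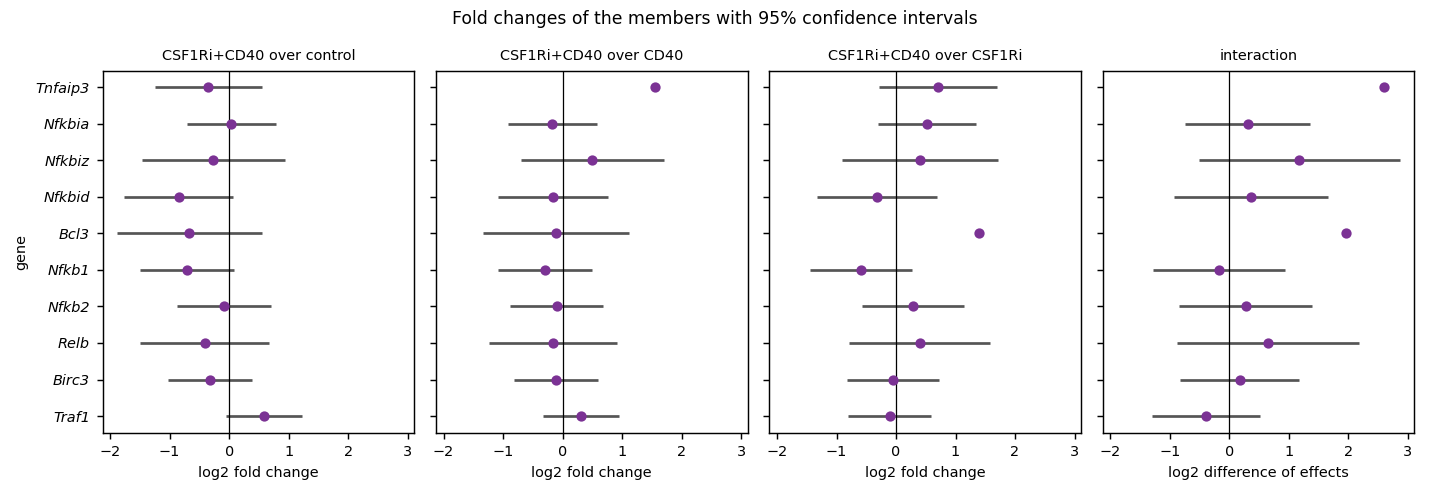
Log2 fold changes (points) with 95% confidence intervals (lines) of the 10 genes in the 4 tested contrasts, on log2(value + 1), with 0 as a black line. Tnfaip3 over CD40, Bcl3 over CSF1Ri and both genes in the interaction have points only, since these contrasts hold groups in which they were picked out as low. The intervals of Tnfaip3 over CSF1Ri and over control are drawn, but they too are descriptions. Tnfaip3 was also picked out as low in the CSF1Ri libraries, and the controls were the reference in that choice. Every interval drawn contains 0.

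The members did not move as 1 block. Over the 10 libraries the 45 pairs of members had Pearson correlations between -0.59 and 0.74 on the log2 scale, with a median of 0.16, and 12 of the pairs were below 0. These are descriptions over libraries that share their groups. Nfkbia and Relb had the highest correlation, 0.74, followed by Nfkbiz and Nfkbid at 0.73. Tnfaip3 correlated at 0.50 with Nfkbid, 0.46 with Relb and 0.14 with Nfkbia. After each group's mean was taken off, its correlation was 0.75 with Relb and 0.64 with Nfkbia.

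Of 8843 other genes with a mean of at least 100, those most like Tnfaip3 over the 10 libraries were Plcl2 (Pearson r = 0.947) and Ahr (0.917), followed by Uba3, Bmi1, Zdhhc5, Per3, Lrrc28, 2410004B18Rik, Hibadh and Cd69, down to 0.844. Plcl2, a phospholipase C-like protein without known catalytic activity, had 150 and 263 normalized counts in the CSF1Ri+CD40 libraries, 75, 103 and 48 in the CD40 libraries, 185 and 144 in the CSF1Ri libraries, and 362, 319 and 184 in the controls. Ahr, the aryl hydrocarbon receptor, had 126 and 285 in the CSF1Ri+CD40 libraries, 67, 43 and 27 in the CD40 libraries, 175 and 52 in the CSF1Ri libraries, and 256, 109 and 356 in the controls. Cd69, an early activation and residency marker, averaged 7806 ± 2295 in CSF1Ri+CD40, 4588 ± 1075 in CD40, 5742 ± 302 in CSF1Ri and 6969 ± 783 in control libraries (SD, n = 2, 3, 2 and 3). All 10 of these genes had their lowest value in CD40 library 3, as had Tnfaip3. The order of likeness rested on CD40 library 3. Without it Plcl2 went to rank 27 (r = 0.906), Ahr to rank 51 (0.883) and Cd69 to rank 487 (0.720). Leaving out each of the other libraries in turn kept Plcl2 within the first 4. With group means taken off, Baiap2 (0.957), Lias (0.954) and Rsl24d1 (0.943) were the most like, and none of the first 10 genes was among the first 10 of that order.

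**Figure D4:**
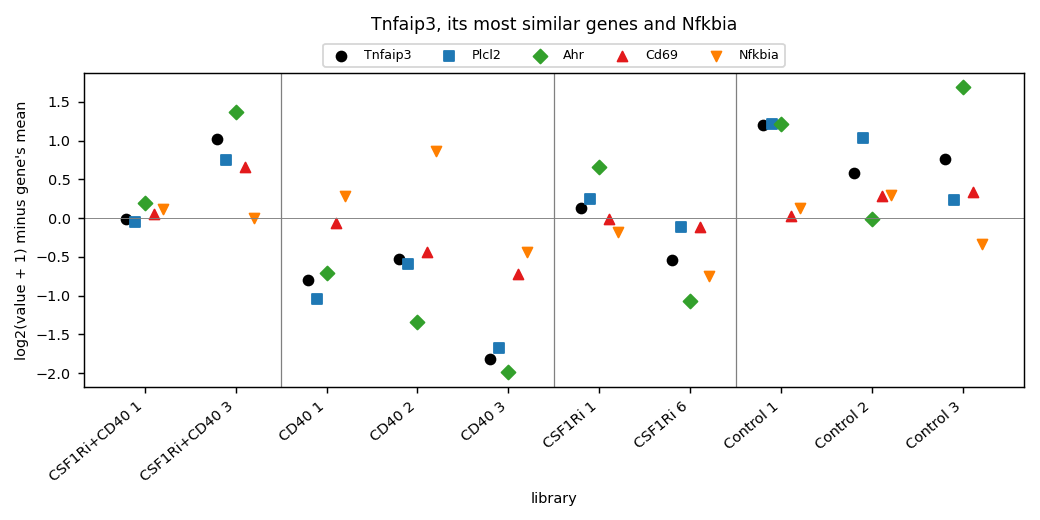
Log2(value + 1) minus the gene's own mean over the 10 libraries (vertical axis) for Tnfaip3, Plcl2, Ahr, Cd69 and Nfkbia in each library (horizontal axis), with groups divided by grey lines. Tnfaip3, Plcl2, Ahr and Cd69 are lowest in CD40 library 3, and Nfkbia is highest in CD40 library 2.

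Some genes raised by tissue dissociation moved with Tnfaip3 across libraries, and others did not. The summed normalized counts of 19 immediate early and heat shock genes, 18 of them tested, were 30068 and 31688 in the CSF1Ri+CD40 libraries, 26397, 32432 and 18740 in the CD40 libraries, 28305 and 25306 in the CSF1Ri libraries, and 36508, 29375 and 34996 in the controls. The lowest sum, like the lowest Tnfaip3, was in CD40 library 3, and the highest of both in Control library 1. The sums of the CD40 libraries overlapped those of the controls. Among the 16 whose mean reached 100, the correlation with Tnfaip3 was above 0 for 11 and below 0 for 5, between -0.441 for Dnajb1 and 0.839, at a median of 0.577. Zfp36, an mRNA decay factor, had r = 0.839 with Tnfaip3 (rank 13), and Fosb, an AP-1 subunit, r = 0.826 (rank 21). In the interaction 13 of the 18 were above 0 at a median of 1.06, where 50.9% of all tested genes were below 0. Of the 18, 0 passed the adjusted limma threshold. The part of these genes in the Tnfaip3 values was not tested.

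Y-linked transcripts were found in the library with the highest Tnfaip3 and in that with the lowest. In the libraries without them, which leave CD40 library 1 as the lone library of its group, the CD40 over control value of Tnfaip3 was -1.47 and the interaction 2.17, beside -1.90 and 2.60 in all libraries. Marker lists of other cells differed between groups in patterns of their own. For 10 type 17 and gamma delta T cell genes the sums were 13323 and 12537 with both agents, 11332, 5319 and 13541 with the antibody, 12607 and 19890 with the inhibitor, and 21189, 22161 and 28714 in controls. All 3 controls were above every treated library for this list, and the CSF1Ri+CD40 and CD40 libraries overlapped. For 6 erythroid genes the sums were 13 and 501 with both agents, 876 to 1195 with the antibody, 1318 and 2729 with the inhibitor and 2940 to 15906 in controls, lowest where both agents were given. For 9 mast cell and basophil genes the sums were 10540 and 2177 with both agents, 18577, 2954 and 4003 with the antibody, 2471 and 805 with the inhibitor, and 922, 611 and 1956 in controls. All 5 libraries that received the antibody were above all 3 controls for that list. The part of these lists in the Tnfaip3 values was not tested.

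Of 71 other genes of the pathway, 69 were tested, and none passed the adjusted limma threshold in any of the 4 tested contrasts. Among the 13 ligands and receptors tested, 11 were below 0 in the interaction, at a median of -0.43, and 50.9% of all tested genes were. Tnf, which encodes the cytokine TNF, averaged 255 ± 127 in CSF1Ri+CD40, 598 ± 193 in CD40, 418 ± 47.4 in CSF1Ri and 377 ± 74.4 in control libraries (SD, n = 2, 3, 2 and 3), and its interaction was -1.43 (limma adjusted p = 0.991). Its highest mean was in the CD40 group, where that of Tnfaip3 was lowest. Cd40lg, the ligand of CD40, had an interaction of -0.80 (limma adjusted p = 0.991).

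Among 13 adaptors and ligases, 7 were above 0 in the interaction, where 50.9% of all tested genes were below 0. Traf3, a restraint on the alternative pathway, was at 1.94 and Bcl10, of the antigen receptor signalosome, at -0.55. Of 10 kinases and their partners 8 were above 0, with Chuk, an IkB kinase subunit, at 1.18, and Tab1, a TAK1-binding protein, at -2.07. The subunits Rel and Rela were at 0.62 and 0.26. Of 13 other inhibitors and deubiquitinases 8 were above 0, yet Tnip2 and Tnip3, which encode A20-binding proteins, were at -1.65 and -2.63, the opposite sign from Tnfaip3. Of 18 other induced targets 10 were above 0, with Ier3 at -2.40 and Irf1 at 0.50. All of these had a limma adjusted p of 0.991. Ccl4, a chemokine named after its values were seen, averaged 7336 ± 1352 in CSF1Ri+CD40, 2492 ± 2015 in CD40, 1610 ± 41.7 in CSF1Ri and 1391 ± 417 in control libraries (SD, n = 2, 3, 2 and 3). Its log2 fold change of CSF1Ri+CD40 over control was 2.43 (limma adjusted p = 0.914), and the same value passed the threshold (limma adjusted p = 0.0156) when CD40 library 3 was left out of the fit. Over all alternatives that adjusted p was between 0.0156 and 1.00.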

How the data were processed

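The deposited values are scores: counts per gene that the authors divided by size factors and rounded to whole numbers. STAR, HTSeq and DESeq2 with GRCm38 (mm10) are named in the submitters' processing notes, and their versions and the annotation release are not given in the sources used here. Size factors computed again agreed within 0.203%, so no scaling was added. The rounded values were not turned back into reads, so no count model was run. Of the gene names, 27 had been turned into numbers.

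Genes with a value of at least 10 in at least 2 libraries were kept. log2(value + 1) was fitted by group in limma 3.58.1 (R 4.3.3) with a variance trend over all 10 libraries, and two-sided p-values were adjusted by Benjamini-Hochberg over all 15716 genes of a contrast, with a threshold of 0.05. The interaction is the antibody's effect on the inhibitor minus that off it. The script was tested on simulated data. p-values measure the spread between pools of tumors. Members and lists were chosen with earlier results of these data known. Named pathway genes are the 2 per role with the smallest interaction p and a mean of at least 50. Alternatives were pseudocounts, filters, scalings, weights, a Malat1 term, a replicate block, fewer groups and libraries left out. Same-numbered libraries of different groups had correlated departures between -0.11 and 0.091 over 7 pairs, so the numbers were not used to pair them. Some items of the labels and marker lists are not reported here.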

Additional observations from a re-analysis of the deposited data

Results flagged for a closer look

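The interaction of Tnfaip3 stood out because every library moved from the mean of the group without the antibody, up on the inhibitor and down on normal chow. Both CSF1Ri+CD40 libraries were above the mean of the CSF1Ri libraries, although the groups overlapped, and all 3 CD40 libraries were below the mean of the controls. The mean effect of the antibody was 0.70 (log2) with the inhibitor and -1.90 without it, a difference of 2.60. These are descriptions, since Tnfaip3 was picked out as low in the CSF1Ri and the CD40 libraries. With 1 library left out, the effect with the inhibitor was between 0.18 and 1.22. The size of the difference was partly set by the choice of Tnfaip3, and it missed the adjusted threshold, so opposite effects were not shown.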

How the results depend on the processing

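No member passed the adjusted limma threshold under the alternatives that were run. These were 23 for CSF1Ri+CD40 over control and over CD40, 22 over CSF1Ri and 21 for the interaction. In each case 10 of them left out 1 library each. No replicate block was fitted over CSF1Ri or for the interaction, since that fit left out the CSF1Ri libraries. The interaction uses all 4 groups, so it had no fit of the compared groups alone. With 1 library left out the interaction of Tnfaip3 was between 2.08 and 3.12, and its difference from CD40 between 1.03 and 2.07. That difference was 1.61 with the replicate block. Of 1142 alternative values of single genes in the tested contrasts, 49 changed sign and the other 1093 kept sign and side of the threshold. Of 450 in the described contrasts, 8 changed sign. The cause was not tested. The setting without CD40 libraries 2 and 3 was chosen after seeing the data. Depth is unknown for these rounded values, and 2 libraries in a group limit every interval.

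With 1 library left out, the members lower in CSF1Ri+CD40 than in control were between 5 and 9, than in CD40 between 4 and 7, and than in CSF1Ri between 1 and 6. Those lower than control were between 7 and 8 in CD40 and between 7 and 9 in CSF1Ri. Those lower in CSF1Ri+CD40 than in CD40 were 4 in the libraries without Y-linked transcripts and 4 without CD40 libraries 2 and 3. Pathway genes past the threshold over control were between 0 and 1 with 1 library left out and 1 without CD40 libraries 2 and 3, the gene being Ccl4.

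Leave-one-out log2 ranges that cross 0 were, for CSF1Ri+CD40 over control, -0.87 to 0.17 for Tnfaip3, -0.15 to 0.16 for Nfkbia, -0.72 to 0.22 for Nfkbiz, -0.20 to 0.04 for Nfkb2 and -0.84 to 0.01 for Relb. Over CD40 they were -0.51 to 0.14 for Nfkbia, -0.44 to 0.12 for Nfkbid, -0.46 to 0.24 for Bcl3, -0.32 to 0.13 for Nfkb2, -0.59 to 0.26 for Relb and -0.34 to 0.16 for Birc3. Over CSF1Ri they were -0.04 to 0.85 for Nfkbiz, -0.71 to 0.06 for Nfkbid, -0.06 to 0.85 for Relb, -0.35 to 0.25 for Birc3 and -0.29 to 0.07 for Traf1. In the interaction they were -0.02 to 0.63 for Nfkbia, -0.02 to 0.75 for Nfkbid, -0.48 to 0.11 for Nfkb1 and -0.13 to 0.47 for Birc3. For CD40 over control they were -0.11 to 0.55 for Nfkbia, -0.21 to 0.24 for Nfkb2 and -0.48 to 0.01 for Birc3, and for CSF1Ri over control -0.39 to 0.12 for Nfkb1 and -0.58 to 0.03 for Birc3.

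Other sign changes over control were -0.07 for Nfkbia with quantile normalization and, in the libraries without Y-linked transcripts, 0.22 for Nfkbiz and 0.04 for Nfkb2. Over CD40 the replicate block gave 0.05 for Nfkbia and 0.02 for Relb, array weights 0.02 for Nfkbid and a Malat1 term 0.02 for Birc3. The libraries without Y-linked transcripts, and those without CD40 libraries 2 and 3, set both CSF1Ri+CD40 libraries against CD40 library 1 alone, which is assumed to vary like the other groups, so they share their values over CD40, which were 0.29 for Nfkbid, 0.21 for Bcl3 and 0.30 for Nfkb1. The interaction of Nfkb1 was 0.15 with array weights, 0.34 in the libraries without Y-linked transcripts and 0.42 without CD40 libraries 2 and 3, and that of Nfkb2 was -0.31 in the libraries without Y-linked transcripts and -0.19 without CD40 libraries 2 and 3.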
